A study of Mus musculus with 88 samples.

Results

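Probucol and chow were compared in the hearts of dKO mice at an age of 31 days. The mice called dKO had the genotype SR-BI-/- apoE-/-, so they lacked SR-BI, the high-density lipoprotein receptor encoded by Scarb1, and apolipoprotein E, a ligand through which lipoprotein remnants are cleared. The comparison used the 10 arrays labelled as dKO at 31 days on the chow diet and the 8 arrays labelled as dKO at 31 days on the probucol diet, which are 18 of the 88 arrays of the study. Each array carried RNA from the whole heart of 1 mouse. Set beside them are the 10 hearts of SR-BI+/- apoE-/- mice (HET) on chow and the 3 HET hearts on probucol, also taken at 31 days. Apolipoprotein E was missing in all these groups, the controls included. For the change with age, 10 chow and 6 probucol dKO hearts at 21 days and 12 chow and 6 probucol dKO hearts at 43 days were used. The design text of the study describes small infarcts and heart failure at 31 days in chow-fed dKO mice, extensive infarcts with severe failure at 43 days, and no detectable coronary disease at 21 days or in HET mice on chow. The dose of probucol, the age at which the diet began and the sex of the mice are not given in the sources used here.

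Probucol is a lipid-lowering drug with antioxidant activity. Mice without SR-BI and apolipoprotein E build up abnormal, cholesterol-rich lipoproteins and develop occlusive coronary artery disease within weeks of birth. When heart muscle dies, monocytes enter and become macrophages that engulf dead cells and lipid, fibroblasts lay down matrix, and the surviving muscle cells switch on stress genes and reduce the genes of fatty acid oxidation and respiration on which a healthy adult heart depends. RNA of whole heart holds all of these cells together.

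Signal intensities of 12488 probe sets were available, and 5684 genes were tested. Levels are given as log2 signal after every array was shifted to a common median, so a difference of 1 is a change of 2-fold, and every difference is probucol minus chow with its standard error unless another is named. Adjusted p-values come from limma with Benjamini-Hochberg adjustment over all 5684 genes, and the threshold was 0.05. The median signal was 38.5 to 65.8 on the chow arrays and 38 to 45.6 on the probucol arrays (exact two-sided permutation test, p = 0.0175, adjusted over 4 array measures p = 0.0554). The log2 ratio of the 3' to the 5' actin control probe set, a sign of RNA quality, averaged 0.386 on chow and 0.0354 on probucol (exact two-sided permutation test, p = 0.0277, adjusted p = 0.0554). Because of the brightness, counts are also given for genes called in 3 scalings at once, which were centring on the median, quantile normalization and the signals as deposited; without centring, the median of all genes was lower with probucol by 0.25. The 4 arrays farthest from the rest within the comparison, chow replicates 2 and 6 and probucol replicates 2 and 3, were also left out together, a choice made after the data had been seen, and counts without them are given beside the main counts where they differ, and for most that do not. By another array pattern, seen on 20 of the 88 arrays, probucol replicate 2 stood apart from the other 17 arrays, as did 6 of the 10 HET chow hearts.

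Of the 5684 genes, 1101 (19.4%) differed between probucol and chow hearts, 650 (11.4%) lower and 451 (7.93%) higher with probucol. Of these, 634 were lower and 113 higher in all 3 scalings, and the numbers lower and higher were 1519 and 122 in the signals as deposited and 682 and 711 after quantile normalization. Without the 4 arrays 731 genes were called, 410 lower and 321 higher. All 8 probucol hearts lay below all 10 chow hearts for 118 genes (2.08%) and above them for 29 genes (0.510%). The median difference over all genes was 0.00. The counts within gene lists below are to be read beside the shares over all genes of 11.4% lower and 7.93% higher. The 12 largest falls, of 2.4 to 4.08, were those of Mmp12, Ccl8, Isg20, Lgals3, Tgfb1, Tent5c, Fcgr2b, Lilr4b, Bpgm, Il4ra, Lox and Alas2, and the 12 largest rises were smaller, at 1.15 to 2.01. The probucol means were low for Mmp12 (4.33), Ccl8 (4.69), Isg20 (4.24), Tgfb1 (4.22), Tent5c (4.91), Fcgr2b (3.85), Il4ra (4.4) and Lox (3.94). These lay within the levels of cell markers left out as too dim to test, which reached 5.11. The sizes and ranks of these falls are therefore uncertain. Among genes given below, probucol means also lay within those levels for Ccr2 (4.31), Fos (4.49), S100a9 (4.66), Mmp3 (4.68) and Slc11a1 (4.71). So did those of Cdk1 (4.76), Icam1 (4.85), Cxcl1 (4.86) and Ccl7 (5.05). The sizes of their differences are uncertain too.

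**Figure D1:**
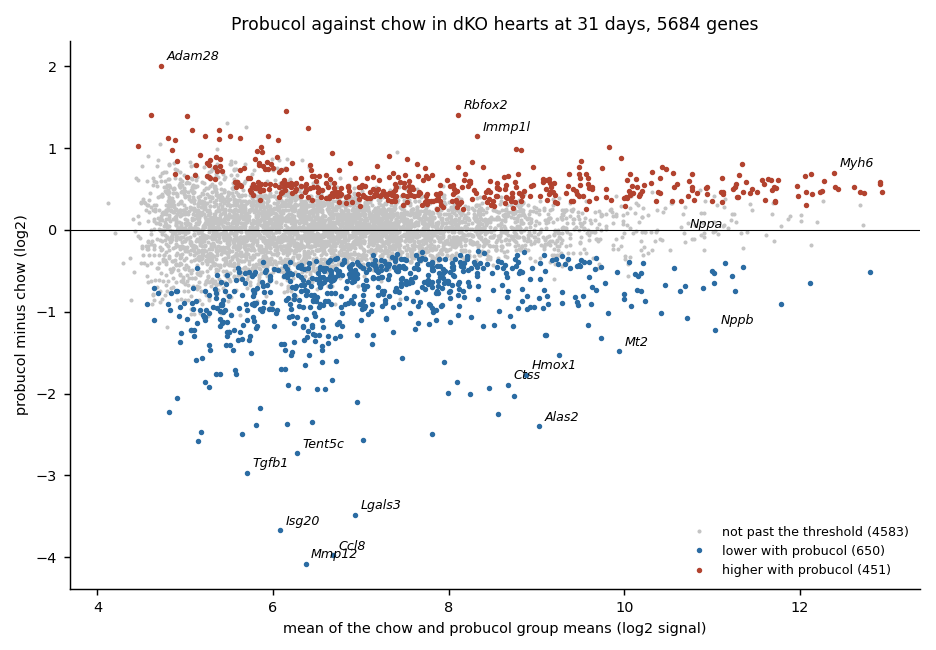
Each point is 1 of 5684 genes, with the mean of its chow and probucol group means (log2 signal) on the horizontal axis. The vertical axis gives the log2 difference, probucol minus chow, in dKO hearts at 31 days. The 650 genes lower with probucol are blue, the 451 genes higher are red and the rest are grey. The falls reach beyond -4 on the log2 scale for Mmp12, and the rises end near 2 for Adam28.

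The labels were first set against Scarb1 itself. Scarb1 ran from 6.13 to 6.77 with a median of 6.46 in the chow hearts and from 6.04 to 6.99 with a median of 6.54 in the probucol hearts, and it averaged 7.51 ± 0.26 (SD, n = 10) in HET chow hearts. Both dKO groups lay below every HET chow heart, the lowest of which was at 7.0. Probucol and chow dKO hearts overlapped in Scarb1, with a difference of 0.14 ± 0.14 (adjusted p = 0.552). Apoe was represented by probe sets too dim for the filter on signal and was not tested.

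Macrophage genes were lower with probucol. Of 23 tested markers of macrophages and other myeloid cells, 18 fell (14 without the 4 arrays, and the same 18 in all 3 scalings) and none rose, with a median difference of -1.16 against 0.00 for all genes. The mean of the list was 7.12 to 8.13 in the chow hearts, 6.14 to 6.64 in the probucol hearts and 5.84 to 6.71 in HET chow hearts, so no probucol heart reached the lowest chow heart. For 8 other listed markers that were too dim to test, no group mean exceeded 5.11. In whole heart RNA, fewer cells of a type and less RNA per cell cannot be told apart.

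Among single markers, Cd68, a membrane glycoprotein of the endosomes and lysosomes of macrophages, ran from 8.55 to 9.89 with a median of 8.88 in the chow hearts and from 7.05 to 7.37 with a median of 7.13 in the probucol hearts. Every probucol heart was lower than every chow heart, and the probucol hearts sat within a narrow band. Cd68 fell by 1.86 ± 0.16 (adjusted p = 4.05e-16). Mpeg1, which encodes the pore-forming protein perforin-2 of macrophages, had lowest, median and highest levels of 8.61, 9.4 and 10.25 on chow and 7.15, 7.47 and 7.87 on probucol. Its groups were also apart, and it fell by 1.93 ± 0.16 (adjusted p = 2.33e-16). Lilr4b, an inhibitory leukocyte receptor, stood at 7.8, 8.35 and 8.59 on chow and 5.29, 5.7 and 6.27 on probucol. With the groups again separate, it fell by 2.57 ± 0.2 (adjusted p = 1.68e-17), to a mean of 5.74 beside 5.52 in HET chow hearts.

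Tyrobp, the signalling adaptor of many myeloid receptors, differed by -1.62 ± 0.18 (adjusted p = 2.87e-11), and Ctss, the macrophage protease cathepsin S, by -1.89 ± 0.2 (adjusted p = 1.02e-11). For both genes, all probucol hearts were below all chow hearts. Fcgr2b, the inhibitory receptor for immunoglobulin G, fell by 2.58 ± 0.38 (adjusted p = 1.85e-07) without overlap, although the probucol hearts were widely spread, from 2.25 to 5.1. Il4ra, the receptor chain shared by interleukin-4 and interleukin-13, was among the 12 largest falls (-2.5 ± 0.34 (adjusted p = 2.85e-08)), but 1 chow heart at 5.38 lay within the probucol range, which ended at 5.84. The other probe set of Il4ra, at 5.35 on chow and 5.0 on probucol, differed by only -0.34.

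Lymphocyte and neutrophil markers did not pass the test as a rule. Of 5 tested markers of T, B and natural killer cells limma called 0, with 2 at an unadjusted p under 0.05, and list means of 5.82 to 6.53 on chow and 5.72 to 6.68 on probucol, and 13 more were too dim, with no group mean above 4.88 and 3 of them at the floor on at least 9 arrays. Of 7 tested neutrophil and mast cell markers limma called 1, which was higher, and 0 in all 3 scalings or without the 4 arrays, with 3 at an unadjusted p under 0.05. S100a9, a calcium-binding protein abundant in neutrophils, had lowest, median and highest levels of 4.69, 5.49 and 7.36 on chow and 3.32, 4.88 and 6.15 on probucol. The groups overlapped over most of their range, and the difference of -1.02 ± 0.41 (adjusted p = 0.072) did not pass the threshold, although it did in 6 of the alternatives tried.

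**Figure D2:**
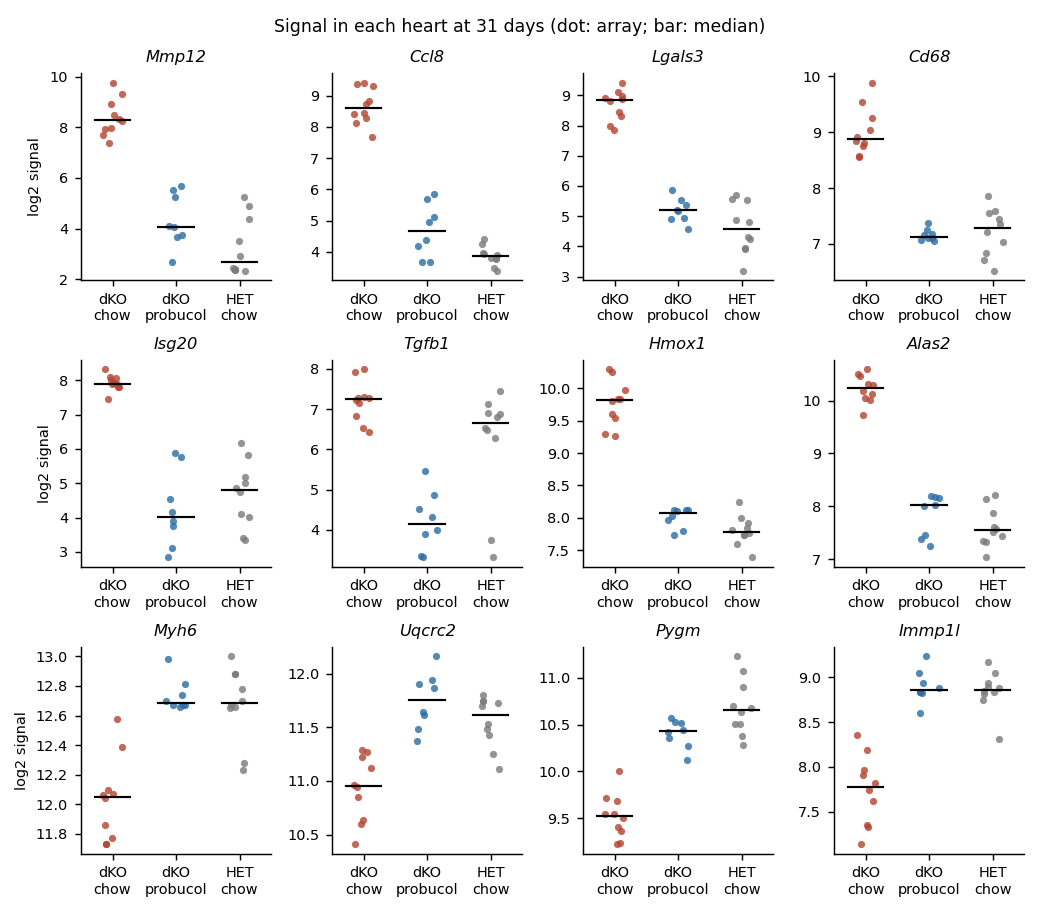
Log2 signal of 12 genes on single arrays of dKO chow (n = 10), dKO probucol (n = 8) and HET chow hearts (n = 10) at 31 days, with a dot for each array and a bar at the group median. For Mmp12, Ccl8, Lgals3, Cd68, Isg20, Tgfb1, Hmox1 and Alas2 all probucol hearts lie below all dKO chow hearts, and for Myh6, Uqcrc2, Pygm and Immp1l all lie above them.

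The chemokines that draw monocytes to tissue were also lower with probucol. Of 8 tested CC chemokines and receptors, 6 fell (4 without the 4 arrays) and none rose, with a median difference of -1.13. Ccl8, a ligand that attracts monocytes, ran from 7.69 to 9.42 with a median of 8.59 in the chow hearts and from 3.66 to 5.86 with a median of 4.66 in the probucol hearts. No probucol heart came near the chow range. Ccl8 fell by 3.98 ± 0.36 (adjusted p = 3.61e-15), while HET chow hearts averaged 3.87. The probucol and HET levels lay within those of the markers left out as too dim, which reached 5.11, so no fold is given and the size of the fall is uncertain. Ccl2, the main ligand for monocyte recruitment, stood at 7.13, 7.99 and 9.22 on chow and 5.03, 5.71 and 7.48 on probucol, and its groups touched through 1 probucol heart at 7.48. It fell by 2.1 ± 0.39 (adjusted p = 3.4e-05), and its receptor Ccr2 by 1.92 ± 0.4 (adjusted p = 0.000246). Ccl7, which also binds Ccr2, differed by -1.35 ± 0.35 (adjusted p = 0.00288). Ccl9 differed less, by -0.82 ± 0.25 (adjusted p = 0.0116), and lost the call without the 4 arrays (adjusted p = 0.106).

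Probucol hearts had lower levels of lysosomal genes, which digest engulfed material in macrophages and turn over proteins in muscle cells as well. Of 38 tested members 23 fell (17 without the 4 arrays, and the same 23 in all 3 scalings) and none rose, with a median of -0.50. Ctsb, the protease cathepsin B, ran from 10.85 to 12.03 with a median of 11.11 in the chow hearts and from 9.79 to 10.5 with a median of 10.19 in the probucol hearts. All probucol hearts were lower than all chow hearts, and the difference was -1.08 ± 0.13 (adjusted p = 1.38e-10). Cathepsin Z, encoded by Ctsz, differed by -1.36 ± 0.19 (adjusted p = 2.18e-08), and the glycosidase Gusb by -1.19 ± 0.15 (adjusted p = 3.15e-09), both without overlap. Laptm5, a lysosomal membrane protein of blood-derived cells that also stands on the macrophage list, fell by 1.16 ± 0.14 (adjusted p = 6.42e-10).

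Genes of cholesterol export and targets of the oxysterol receptor LXR, which is switched on when a cell holds excess cholesterol, were lower in 9 of 15 tested (7 without the 4 arrays), with none higher and a median of -0.74. The list mean was 7.58 to 8.21 on chow, 6.76 to 7.41 on probucol and 6.53 to 7.15 in HET chow hearts. Pltp, a plasma lipid transfer protein and LXR target, ran from 8.96 to 10.16 with a median of 9.21 in the chow hearts and from 8.1 to 8.9 with a median of 8.37 in the probucol hearts. The groups did not overlap, and Pltp fell by 0.96 ± 0.14 (adjusted p = 7.1e-08). Abca1, the exporter that loads cholesterol onto apolipoprotein A-I, stood at 8.8, 9.27 and 9.73 on chow and 8.07, 8.42 and 8.99 on probucol. Its groups overlapped slightly and the difference was -0.81 ± 0.17 (adjusted p = 0.000163), which left the probucol mean of 8.49 above the HET chow mean of 7.72. Npc2, which hands cholesterol out of the lysosome, differed by -0.75 ± 0.12 (adjusted p = 7.57e-07).

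Apod, a lipocalin that carries small lipids, was far from the HET level in both dKO groups. It ran from 8.08 to 10.87 with a median of 9.97 in the chow hearts and from 6.68 to 8.58 with a median of 7.79 in the probucol hearts, while the HET chow hearts ran from 2.31 to 5.04. Probucol hearts were lower than chow hearts with some overlap, the difference being -2.03 ± 0.36 (adjusted p = 1.07e-05), and all of them remained above every HET chow heart. Scd1, the desaturase that makes monounsaturated fatty acids, fell by 0.83 ± 0.23 (adjusted p = 0.00495), and with the mean of its 3 probe sets, 1 of which ran the other way, the call was lost (adjusted p = 0.0651). Of 7 tested genes of sterol synthesis and uptake of low-density lipoprotein limma called 0, also with 0 at an unadjusted p under 0.05, and their median was 0.07.

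Of 10 scavenger and lipoprotein receptors 4 fell (4 without the 4 arrays) and none rose (1 without them). Stab1, a scavenger receptor of macrophages and sinusoidal endothelium, stood at 8.13, 8.43 and 8.71 on chow and 6.78, 7.32 and 7.84 on probucol. Its groups were separate and the difference was -1.1 ± 0.14 (adjusted p = 4.03e-09). Lrp1, a broad endocytic receptor, differed by -0.57 ± 0.11 (adjusted p = 0.000124). Cd68 and Lgals3 were the other 2 members called.

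Galectins bind sugars on cell surfaces, and Lgals3 encodes galectin-3, a product of activated macrophages. It ran from 7.86 to 9.42 with a median of 8.85 in the chow hearts and from 4.57 to 5.85 with a median of 5.2 in the probucol hearts. Every probucol heart was lower than every chow heart by more than the spread of either group, and Lgals3 fell by 3.48 ± 0.38 (adjusted p = 1.67e-11), to a mean of 5.19. Of 7 galectins and galectin-binding proteins tested 4 fell, with or without the 4 arrays. Lgals3bp, a secreted binding partner, differed by -0.88 ± 0.2 (adjusted p = 0.000773). For Lgals9, the brighter of 2 probe sets differed by -0.77 ± 0.18 (adjusted p = 0.000704) and the other did not move with it, and their mean gave no call (adjusted p = 0.635).

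Of 12 complement genes tested, 5 fell (5 without the 4 arrays) and 1 passed the threshold upward, which did so neither in all 3 scalings nor without the 4 arrays. C1qa, C1qb and C1qc encode the chains of C1q, the recognition molecule of the classical pathway made by tissue macrophages. C1qa ran from 9.73 to 10.84 with a median of 10.06 in the chow hearts and from 8.87 to 9.55 with a median of 9.08 in the probucol hearts. The groups were separate, and the differences were -0.91 ± 0.16 for C1qa, -0.91 ± 0.15 for C1qb and -0.93 ± 0.16 for C1qc (adjusted p = 1.53e-05, 3.71e-06 and 8.79e-06). Cfp, the properdin that stabilises the alternative pathway, fell by 1.27 ± 0.2 (adjusted p = 1.26e-06), and C3ar1, the receptor for the C3a fragment, by 1.1 ± 0.15 (adjusted p = 1.92e-08).

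Interferon-stimulated genes answer type I or type II interferon and act against viruses and in antigen presentation. Of 19 tested, 5 fell (6 without the 4 arrays, and the same 5 in all 3 scalings) and none rose, with a median of -0.52. Isg20, an exonuclease, ran from 7.45 to 8.31 with a median of 7.9 in the chow hearts and from 2.84 to 5.88 with a median of 4.03 in the probucol hearts. No probucol heart reached a chow heart, and Isg20 fell by 3.67 ± 0.36 (adjusted p = 1.56e-13). Rsad2, which encodes the antiviral enzyme viperin, stood at 6.32, 7.13 and 7.59 on chow and 4.0, 4.63 and 5.06 on probucol. Its groups were separate, with a difference of -2.39 ± 0.34 (adjusted p = 1.1e-07). Ube2l6, the conjugating enzyme that attaches the ubiquitin-like Isg15, differed by -2.37 ± 0.37 (adjusted p = 8.48e-07) without overlap. The probucol means of Isg20, Rsad2 and Ube2l6 were 4.24, 4.61 and 4.97. They lay within the levels of the markers left out as too dim, so the sizes of these falls are uncertain. Isg15 itself differed by -1.03 ± 0.24 (adjusted p = 0.00113) and Ifi27 by -0.92 ± 0.2 (adjusted p = 0.000291), both with overlap. The effect of probucol was called lower in dKO than in HET hearts for 1 of the 19 genes, Isg20, and higher for 0. Rsad2 stood at 4.58, 3.86 and 4.2 in the 3 HET probucol hearts, beside 4.31 to 5.87 in HET chow hearts. For the genes other than Isg20, a fall particular to dKO hearts was thus not shown.

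The promoters of Isg15 and Rsad2 are shown because interferon factors bind a paired GAAA element, searched here as GAAANNGAAA on both strands in the 250 bases before the RefSeq start (GRCm38.p6). Capitals mark every match; overlapping matches run together. The Isg15 window is at chr4:156200819-156201068 on the minus strand and holds 3 overlapping matches. The Rsad2 window is at chr12:26456453-26456702 on the minus strand and holds 1 match on the opposite strand.
Isg15: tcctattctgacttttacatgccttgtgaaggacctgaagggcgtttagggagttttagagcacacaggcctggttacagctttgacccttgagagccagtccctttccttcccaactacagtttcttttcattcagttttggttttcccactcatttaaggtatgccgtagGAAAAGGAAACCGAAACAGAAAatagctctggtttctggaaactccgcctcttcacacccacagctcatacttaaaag
Rsad2: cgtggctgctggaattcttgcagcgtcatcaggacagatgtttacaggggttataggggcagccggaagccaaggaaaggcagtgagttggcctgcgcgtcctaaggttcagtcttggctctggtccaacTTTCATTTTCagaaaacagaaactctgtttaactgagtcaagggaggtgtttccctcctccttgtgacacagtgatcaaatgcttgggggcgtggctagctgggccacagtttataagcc
Of all 27025 genes with a window, 3.04% had a match. Of the interferon-stimulated genes that fell, 2 of the 4 with a window had a match, and of those that did not pass the threshold 6 of 12 did (Ifit1, Ifit3, Igtp, Irgm1, Gbp2 and Gbp3). The motif was thus as common among the members that were not called.

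Of 10 genes of dendritic cells and MHC class II, 3 fell, 1 of them without the 4 arrays. Cd74, the invariant chain that escorts class II molecules, stood at 8.75, 9.38 and 10.27 on chow and 7.92, 8.29 and 9.32 on probucol. The groups overlapped and the difference was -0.94 ± 0.25 (adjusted p = 0.00349). Of 9 genes of MHC class I and the immunoproteasome, 4 fell and 1 passed the threshold upward (2 and 0 without the 4 arrays). B2m, the light chain of class I molecules, differed by -1.02 ± 0.25 (adjusted p = 0.00179) and the heavy chain H2-D1 by -0.81 ± 0.22 (adjusted p = 0.00495). For H2-DMb1 (-1.17 ± 0.36 (adjusted p = 0.0136)) and the immunoproteasome subunit Psmb8 (-0.89 ± 0.25 (adjusted p = 0.00646)) the call was lost without the 4 arrays (adjusted p = 0.0559 and 0.0715).

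Genes of the acute-phase response and the interleukin-6 axis were lower in 6 of 13 tested (5 without the 4 arrays) and higher in none. Serpina3n, a secreted protease inhibitor, ran from 8.54 to 10.38 with a median of 9.07 in the chow hearts and from 5.44 to 8.81 with a median of 7.32 in the probucol hearts. Only the highest probucol heart reached into the chow range, and Serpina3n fell by 2.0 ± 0.37 (adjusted p = 2.61e-05). Haptoglobin, encoded by Hp, which captures free haemoglobin, differed by -0.77 ± 0.18 (adjusted p = 0.000835). The receptor for tumour necrosis factor Tnfrsf1a differed by -0.77 ± 0.15 (adjusted p = 9.74e-05) on the brighter of its 2 probe sets, and the mean of both gave no call (adjusted p = 0.173). Of 10 leukocyte adhesion molecules 5 fell, 2 without the 4 arrays, and Icam1, which leukocyte integrins grip on activated endothelium, differed by -1.14 ± 0.29 (adjusted p = 0.00254) and lost the call in that setting (adjusted p = 0.0636). Cxcl1, a neutrophil chemoattractant, differed by -1.25 ± 0.37 (adjusted p = 0.0116) and also lost the call there (adjusted p = 0.0915).

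**Figure D3:**
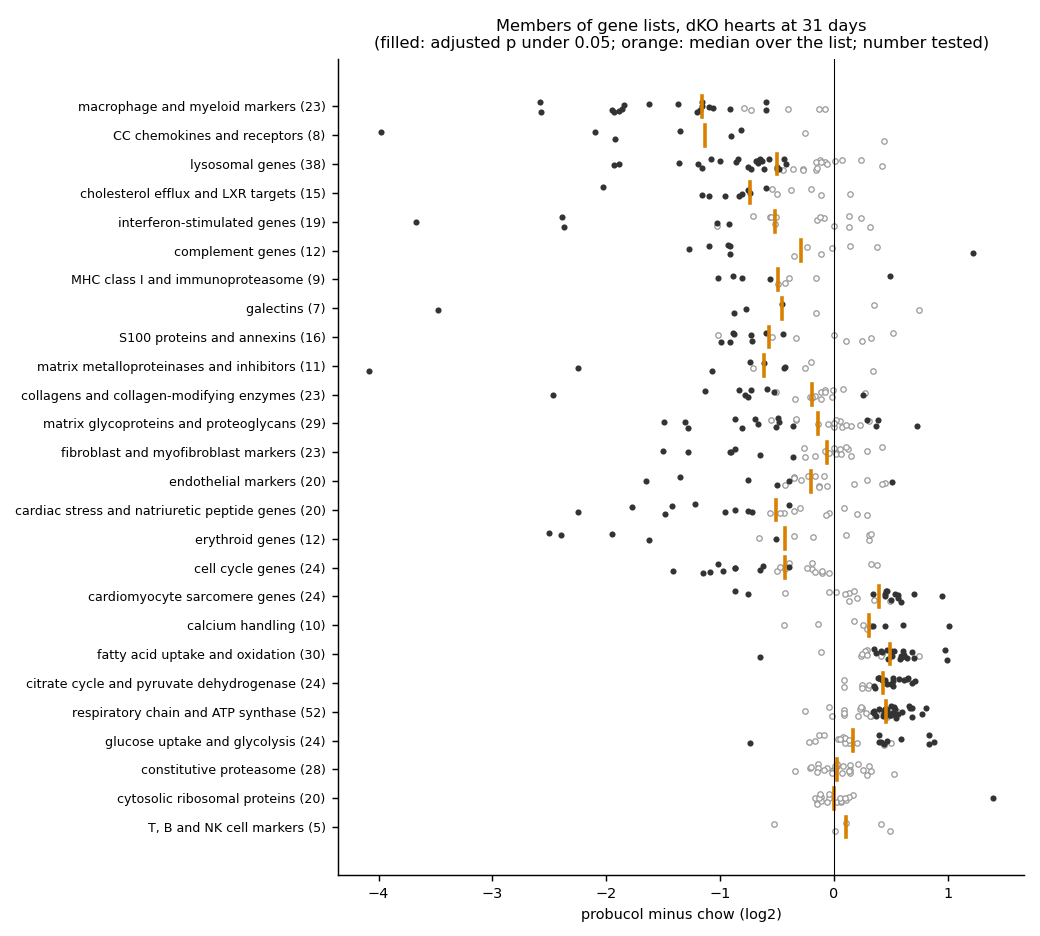
Log2 difference, probucol minus chow, of the tested members of 26 gene lists in dKO hearts at 31 days, with 1 dot per gene, filled where the adjusted p was under 0.05, and an orange mark at the list's median. Macrophage and CC chemokine members lie furthest below 0, with medians of -1.16 and -1.13, and the metabolic lists lie above 0, with medians of 0.43 to 0.49 for fatty acid oxidation, the citrate cycle and the respiratory chain.

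Enzymes that cut the extracellular matrix, and their inhibitors, were lower in 7 of 11 tested (4 without the 4 arrays) and higher in none. Mmp12, the elastase of macrophages, had the largest difference of the genes tested. It ran from 7.39 to 9.76 with a median of 8.28 in the chow hearts and from 2.67 to 5.67 with a median of 4.07 in the probucol hearts. The highest probucol heart was well below the lowest chow heart, and Mmp12 fell by 4.08 ± 0.48 (adjusted p = 1.62e-10). Its probucol mean of 4.33 lay within the levels of the markers left out as too dim, so the size of the fall, and its rank, are uncertain. Timp1, an inhibitor of these enzymes that injured tissue secretes, had lowest, median and highest levels of 8.77, 9.62 and 10.91 on chow and 5.63, 7.57 and 8.46 on probucol. Its groups were separate as well, with a difference of -2.25 ± 0.32 (adjusted p = 1.1e-07). Mmp14, the membrane-bound activator of other matrix proteases, differed by -0.74 ± 0.15 (adjusted p = 0.000157) without overlap. Mmp3, stromelysin, differed by -1.07 ± 0.31 (adjusted p = 0.00872), which did not pass the threshold without probucol replicate 1 (-0.82, adjusted p = 0.0503).

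Collagens form the fibrils and basement membranes of the heart. Of 23 collagens and collagen-modifying enzymes, 8 fell (8 without the 4 arrays) and 1 passed the threshold upward, though not in all 3 scalings or without the 4 arrays, with a median of -0.19. Lox, lysyl oxidase, which crosslinks collagen and elastin, ran from 4.73 to 7.2 with a median of 6.4 in the chow hearts and from 2.26 to 5.09 with a median of 4.33 in the probucol hearts. A single chow heart overlapped the probucol hearts, and Lox fell by 2.47 ± 0.42 (adjusted p = 6.02e-06). Its other probe set, at 4.81 on chow and 4.42 on probucol, differed by only -0.4, so the size of the fall depends on the probe set. The basement membrane chains Col4a1 and Col4a2 differed by -0.78 ± 0.15 (adjusted p = 3.46e-05) and -0.75 ± 0.13 (adjusted p = 4.29e-06), each with all probucol hearts below all chow hearts. HET chow hearts ran from 9.78 to 11 for Col4a1 and from 9.88 to 10.69 for Col4a2. The 3 HET probucol hearts stood at 10.42, 9.6 and 9.49 for Col4a1 and 10.38, 10.08 and 9.76 for Col4a2. Over the 23 genes, the effect was called lower in dKO than in HET hearts for 1 and higher for 0. For most of them a fall particular to dKO hearts was thus not shown. Col5a2, which regulates fibril diameter, differed by -1.13 ± 0.18 (adjusted p = 1.12e-06). Col3a1, a major fibrillar collagen of scar, ran from 9.26 to 10.83 with a median of 9.72 in the chow hearts and from 9.3 to 10.28 with a median of 9.62 in the probucol hearts. Its groups covered nearly the same range and the difference of -0.11 ± 0.16 (adjusted p = 0.671) did not pass the threshold; with the mean of its probe sets it did (-0.58, adjusted p = 0.00223).

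Among 29 matrix glycoproteins and proteoglycans, 11 fell (7 without the 4 arrays) and 4 rose (2 without them, and 1 in all 3 scalings), with a median of -0.14. Postn, periostin, which activated fibroblasts secrete, stood at 9.24, 9.62 and 10.41 on chow and 7.86, 8.45 and 9.25 on probucol. The overlap between its groups was minimal, and the difference was -1.28 ± 0.19 (adjusted p = 1.41e-07). The small proteoglycan Bgn, biglycan, fell by 0.69 ± 0.11 (adjusted p = 1.05e-06), without overlap, and Sparc, a collagen-binding glycoprotein, by 0.67 ± 0.15 (adjusted p = 0.000766). For Sparc, HET chow hearts ran from 9.91 to 11.32, and the 3 HET probucol hearts stood at 10.59, 10.28 and 9.94. Over the 29 genes, the effect of probucol was called lower in dKO than in HET hearts for 2 and higher for 4. Fbln2, an elastic fibre protein, differed by -0.87 ± 0.14 (adjusted p = 2.24e-06). Lamb2, the laminin beta chain of mature muscle basement membrane, went the other way by 0.73 ± 0.14 (adjusted p = 4.12e-05).

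Tgfb1 encodes the cytokine that drives fibroblasts to make matrix. It ran from 6.43 to 7.98 with a median of 7.25 in the chow hearts and from 3.32 to 5.46 with a median of 4.16 in the probucol hearts. All probucol hearts were below all chow hearts, and Tgfb1 fell by 2.97 ± 0.45 (adjusted p = 3.9e-07). HET chow hearts were widely spread, from 3.32 to 7.44, and in HET hearts Tgfb1 differed with probucol by -2.02 ± 0.63 (adjusted p = 0.0375), so the effects in the genotypes were not shown to differ (difference -0.95 ± 0.77, adjusted p = 0.485). Of 16 ligands, receptors and CCN proteins of the pathway 4 fell (5 without the 4 arrays) and none rose, beside 11.4% lower over all genes. Ccn2, a matricellular target of the pathway, differed by -0.72 ± 0.22 (adjusted p = 0.0132).

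Markers of fibroblasts and myofibroblasts were lower in 7 of 23 tested (6 without the 4 arrays), none was higher, and the median was -0.06. The list mean was 7.72 to 7.96 on chow and 7.38 to 7.74 on probucol. Cnn2, a calponin of motile cells, differed by -0.9 ± 0.15 (adjusted p = 2.02e-06), and S100a4, found in fibroblasts and macrophages alike, by -0.91 ± 0.17 (adjusted p = 4.47e-05), both without overlap. Cnn2 was also lower in the 3 HET probucol hearts, at 5.64 to 6.25 beside 6.52 to 7.54 in HET chow hearts. Tpm4, a cytoskeletal tropomyosin, differed by -0.65 ± 0.17 (adjusted p = 0.00255).

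Endothelial genes were lower in 5 of 20 tested (4 without the 4 arrays, and 13 in the signals as deposited), and 1 that passed upward did not do so in all 3 scalings. Over all genes 11.4% were lower, and in the signals as deposited 1519 of 5684 were. Cdh5, the cadherin of endothelial junctions, ran from 8.68 to 9.39 with a median of 9.08 in the chow hearts and from 7.38 to 8.67 with a median of 8.37 in the probucol hearts. The groups were narrowly separate, with 1 probucol heart well below the rest, and the difference was -0.75 ± 0.15 (adjusted p = 0.000109). Cldn5, a tight junction protein, differed by -1.65 ± 0.31 (adjusted p = 3.46e-05), and Nos3, the endothelial nitric oxide synthase, by -1.35 ± 0.29 (adjusted p = 0.000326). For these 3 genes the HET chow means were 9.11, 6.78 and 6.59, nearer to the dKO chow means of 9.05, 7.19 and 7.03 than to the probucol means of 8.3, 5.54 and 5.68. The 3 HET probucol hearts stood at 8.48, 8.67 and 7.89 for Cdh5, 6.87, 6.49 and 3.73 for Cldn5, and 6.02, 6.0 and 4.58 for Nos3. All but 1 of these values lay below the HET chow means. The effect of probucol was called lower in dKO than in HET hearts for 0 of the 20 genes and higher for 2. A fall particular to dKO hearts was thus not shown.

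S100 proteins and annexins, calcium-binding proteins of membranes and leukocytes, were lower in 8 of 16 tested (8 without the 4 arrays) and higher in none. Anxa3 differed by -0.99 ± 0.16 (adjusted p = 3.95e-06) and Anxa1, which restrains neutrophil entry, by -0.73 ± 0.15 (adjusted p = 0.000112), both without overlap. Anxa2, which assembles plasminogen activators at the cell surface, differed by -0.88 ± 0.18 (adjusted p = 0.000142).

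Genes of the cardiac stress and natriuretic peptide list were lower in 10 of 20 tested (10 without the 4 arrays, and the same 10 in all 3 scalings) and higher in none, with a median of -0.51. The list shares Timp1, Hmox1, Mt2 and Ccn2, which also fell, with other lists given here, so it is not a list of muscle genes alone. Nppb, the B-type natriuretic peptide released by stretched ventricle, ran from 10.91 to 12.33 with a median of 11.62 in the chow hearts and from 9.37 to 11.23 with a median of 10.6 in the probucol hearts. The ranges overlapped in part, and Nppb fell by 1.22 ± 0.25 (adjusted p = 0.000178). Ankrd1, a stretch-responsive sarcomere and nuclear protein, differed by -0.75 ± 0.18 (adjusted p = 0.00102). In the 3 HET probucol hearts Nppb stood at 11.18, 9.49 and 9.72 and Ankrd1 at 10.97, 10.99 and 10.75. HET chow hearts ran from 10.36 to 11.89 for Nppb and from 10.88 to 11.74 for Ankrd1. Sprr1a, which stressed heart muscle cells induce, stood at 6.38, 7.44 and 8.01 on chow and 4.37, 5.85 and 6.63 on probucol and differed by -1.42 ± 0.31 (adjusted p = 0.000439). Uck2, a kinase of pyrimidine salvage, differed by -0.96 ± 0.17 (adjusted p = 7.53e-06).

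The atrial natriuretic peptide gene Nppa was looked at after its values were known, beside Nppb. It ran from 10.24 to 11.31 with a median of 10.63 in the chow hearts and from 10.45 to 10.98 with a median of 10.65 in the probucol hearts. The probucol hearts lay inside the chow range, and the difference of -0.04 ± 0.14 (adjusted p = 0.878) did not pass the threshold; the signals as deposited gave -0.29 (adjusted p = 0.0334), which is close to the shift of all genes in that scaling.

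Hmox1, haem oxygenase-1, breaks down haem and is induced by oxidants and by haem itself. It ran from 9.27 to 10.29 with a median of 9.82 in the chow hearts and from 7.74 to 8.12 with a median of 8.07 in the probucol hearts. The probucol hearts formed a tight group below all chow hearts, and Hmox1 fell by 1.77 ± 0.14 (adjusted p = 3.68e-18), to a mean of 8.0 beside 7.8 in HET chow hearts. Of 13 genes of haem breakdown and iron handling 5 fell and none rose, and 3 fell without the 4 arrays or without any 1 of chow replicate 1, chow replicate 9 and probucol replicate 3. Slc11a1, an iron and manganese transporter of phagosomes, stood at 6.09, 6.4 and 6.88 on chow and 3.65, 4.73 and 6.02 on probucol. Its groups did not overlap, and it fell by 1.71 ± 0.29 (adjusted p = 3.97e-06), a size left uncertain by the dim probucol mean of 4.71.

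Of 37 genes of glutathione and antioxidant defence, 6 fell (4 without the 4 arrays) and 3 rose (2 without them), of which 0 did so in all 3 scalings, and the median was 0.00. Over all genes 11.4% were lower and 7.93% higher, so these counts were not far from those shares. Mt2, a metallothionein that binds zinc and is induced by stress and glucocorticoids, ran from 10.18 to 10.99 with a median of 10.72 in the chow hearts and from 8.65 to 9.65 with a median of 9.22 in the probucol hearts. No overlap was present, and Mt2 fell by 1.48 ± 0.22 (adjusted p = 1.78e-07). Sod2, the superoxide dismutase of mitochondria, rose by 0.45 ± 0.13 (adjusted p = 0.00666), but not in the signals as deposited (0.20, adjusted p = 0.169). Gsta4, a glutathione transferase that removes lipid peroxidation products, differed by 0.87 ± 0.29 (adjusted p = 0.0228); without chow replicate 4 the difference was 0.71 (adjusted p = 0.0725) and without probucol replicate 1 it was 0.80 (adjusted p = 0.0518). Leaving out either of those arrays also reduced the rises of the list from 3 to 1.

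Red cell genes were among the largest falls. Of 12 erythroid genes tested 5 fell (5 without the 4 arrays, and the same 5 in all 3 scalings) and none rose (1 without the 4 arrays), with list means of 7.33 to 7.89 on chow, 6.55 to 7.21 on probucol and 6.93 to 7.36 in HET chow hearts. Alas2, which begins haem synthesis in red cell precursors, ran from 9.73 to 10.59 with a median of 10.24 in the chow hearts and from 7.24 to 8.19 with a median of 8.02 in the probucol hearts. All probucol hearts were below all chow hearts, and Alas2 fell by 2.4 ± 0.21 (adjusted p = 1.77e-15), to about the HET chow mean of 7.61. Bpgm, which makes the ligand that loosens oxygen from haemoglobin, stood at 8.13, 9.14 and 9.46 on chow and 5.8, 6.71 and 7.12 on probucol. It fell without overlap by 2.5 ± 0.24 (adjusted p = 5.43e-14). Slc4a1, the anion exchanger of the red cell membrane, and Car2, a carbonic anhydrase, differed by -1.62 ± 0.25 (adjusted p = 9.77e-07) and -1.95 ± 0.23 (adjusted p = 3.36e-10), again without overlap.

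Hba-a1, an alpha globin gene, ran from 12.6 to 13.71 with a median of 12.98 in the chow hearts and from 12.08 to 12.86 with a median of 12.57 in the probucol hearts. The groups overlapped, and the difference of -0.51 ± 0.17 (adjusted p = 0.0221) did not pass the threshold without chow replicate 1 (-0.44, adjusted p = 0.0595) or without probucol replicate 7 (-0.45, adjusted p = 0.062). The alpha globin copies are nearly identical in sequence, so the probe set may measure more than 1 gene. Tent5c, a poly(A) polymerase present in red cell precursors and plasma cells, was not on the list but was among the 12 largest falls. It stood at 6.79, 7.73 and 7.97 on chow and 4.5, 4.9 and 5.13 on probucol, without overlap, and differed by -2.73 ± 0.31 (adjusted p = 7.1e-11).

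The promoters of Alas2 and Hba-a1 are printed because red cell factors of the GATA family bind AGATAA and those of the KLF family bind CCACCC, both searched on both strands in the 250 bases before the RefSeq start (GRCm38.p6). Capitals mark the matches. The Alas2 window is at chrX:150547167-150547416 on the plus strand, with 1 AGATAA and 3 CCACCC, all on the opposite strand. The Hba-a1 window is at chr11:32283422-32283671 on the plus strand, with 1 CCACCC and no AGATAA. It holds the similar TGATAA, which was not searched for and is not marked. The search therefore does not show that the window lacks a GATA site.
Alas2: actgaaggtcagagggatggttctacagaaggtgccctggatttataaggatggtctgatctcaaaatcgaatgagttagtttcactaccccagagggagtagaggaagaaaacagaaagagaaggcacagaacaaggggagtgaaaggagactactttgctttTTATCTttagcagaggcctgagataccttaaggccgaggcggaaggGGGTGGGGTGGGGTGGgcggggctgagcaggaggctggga
Hba-a1: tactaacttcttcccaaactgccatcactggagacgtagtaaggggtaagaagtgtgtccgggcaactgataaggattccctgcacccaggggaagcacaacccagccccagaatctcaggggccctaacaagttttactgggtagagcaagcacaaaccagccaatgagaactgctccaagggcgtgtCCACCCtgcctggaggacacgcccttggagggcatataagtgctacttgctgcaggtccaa
Over all 27025 windows 10.3% had AGATAA and 27.7% had CCACCC. Of the 3 erythroid genes that fell and had a window, 1 had AGATAA and 2 had CCACCC, and of the 4 with a window that did not pass the threshold 1 had each motif.

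Immediate early transcription factors, which rise within minutes of a stimulus and can respond to handling of tissue, were lower in 6 of 20 tested (5 without the 4 arrays) and higher in none, with a median of -0.35. That count was 14 in the signals as deposited and 13 with array brightness as a covariate. Fos stood at 4.93, 5.69 and 6.56 on chow and 3.09, 4.68 and 5.16 on probucol. With 2 probucol hearts inside the chow range, it differed by -1.22 ± 0.29 (adjusted p = 0.00115), and Ier2 by -0.81 ± 0.15 (adjusted p = 3.24e-05). HET chow hearts averaged 5.73 for Fos and 7.41 for Ier2, close to dKO chow hearts. The 3 HET probucol hearts stood at 4.65, 4.49 and 5.06 for Fos and 6.85, 6.41 and 6.4 for Ier2, all below those HET chow means. A fall of these genes particular to dKO hearts was thus not shown. Cebpd, which also stands on the list of glucocorticoid-responsive genes, differed by -1.04 ± 0.21 (adjusted p = 0.000109). In that list 5 of 20 fell (4 without the 4 arrays) and none rose, beside 11.4% lower over all genes. Of 15 clock genes 1 rose (0 without the 4 arrays) and 1 fell (1 without them), the latter being Bhlhe40, a repressor within the clock, which differed by -1.29 ± 0.17 (adjusted p = 6.97e-09) without overlap. Bhlhe40 was also lower in the 3 HET probucol hearts, at 5.96 to 6.12 beside 6.71 to 7.56 in HET chow hearts.

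Genes of the cell cycle were lower in 10 of 24 tested (5 without the 4 arrays, and 16 in the signals as deposited) and higher in none, with a median of -0.43. Ccna2, a cyclin of S phase and mitosis, stood at 6.84, 7.35 and 7.68 on chow and 5.63, 6.43 and 6.95 on probucol. Its groups overlapped slightly, and the difference was -1.02 ± 0.29 (adjusted p = 0.00645). Ccnb2, a mitotic cyclin, differed by -0.65 ± 0.15 (adjusted p = 0.000595), and Cdkn1a, the inhibitor p21, by -1.15 ± 0.31 (adjusted p = 0.00499). Stmn1, which destabilises microtubules in dividing cells, differed by -0.87 ± 0.22 (adjusted p = 0.00213). The mitotic kinase Cdk1 differed by -1.41 ± 0.42 (adjusted p = 0.0119) and lost the call without the 4 arrays (adjusted p = 0.0562).

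Contractile genes were higher in probucol hearts. Of 24 sarcomere genes 12 rose (10 without the 4 arrays) and 2 fell, with a median of 0.40, and 3 rose in all 3 scalings. The mean of the list was 9.83 to 10.45 on chow, 10.26 to 10.52 on probucol and 10.13 to 10.72 in HET chow hearts. Myh6, the fast alpha myosin heavy chain of the adult mouse ventricle, ran from 11.73 to 12.58 with a median of 12.05 in the chow hearts and from 12.66 to 12.98 with a median of 12.69 in the probucol hearts. All probucol hearts were above all chow hearts, and Myh6 rose by 0.7 ± 0.13 (adjusted p = 4.34e-05). Tnni3, the cardiac inhibitory troponin, rose without overlap by 0.59 ± 0.12 (adjusted p = 0.000165), and Myl2, the ventricular regulatory light chain, by 0.56 ± 0.14 (adjusted p = 0.00187). The probucol means of these 3 genes, 12.74, 13.21 and 13.19, stood beside HET chow means of 12.67, 13.17 and 13.06.

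Of 10 genes of calcium handling, 4 rose (4 without the 4 arrays, 2 in all 3 scalings) and none fell. Hrc, which binds calcium inside the sarcoplasmic reticulum, ran from 8.77 to 9.78 with a median of 9.33 in the chow hearts and from 9.94 to 10.9 with a median of 10.26 in the probucol hearts. No chow heart reached the lowest probucol heart, and Hrc rose by 1.01 ± 0.17 (adjusted p = 4.55e-06). Atp2a2, the pump SERCA2 that refills the reticulum, rose by 0.61 ± 0.15 (adjusted p = 0.00184) with some overlap. Cacna1c, the pore of the L-type calcium channel, rose by 0.45 ± 0.11 (adjusted p = 0.00229), but not in the signals as deposited (0.21, adjusted p = 0.312). Of 18 ion channel and gap junction genes 4 rose (3 without the 4 arrays) and 1 fell, and 0 rose in all 3 scalings.

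Mitochondrial energy genes gave the most numerous rises. Of 30 genes of fatty acid uptake and oxidation 20 rose (16 without the 4 arrays, 10 in all 3 scalings) and 1 fell (0 without the 4 arrays), with a median of 0.49. List means were 8.33 to 9.09 on chow, 9.06 to 9.35 on probucol and 9.19 to 9.63 in HET chow hearts. Hadhb, a subunit of the trifunctional protein of beta-oxidation, ran from 10.84 to 11.66 with a median of 11.39 in the chow hearts and from 11.74 to 12.09 with a median of 11.96 in the probucol hearts. The groups were separate, with the chow hearts lower, and Hadhb rose by 0.62 ± 0.13 (adjusted p = 0.000188). Acadl, the long-chain acyl-CoA dehydrogenase, rose by 0.98 ± 0.2 (adjusted p = 0.000193) and Echs1, the enoyl-CoA hydratase, by 0.99 ± 0.22 (adjusted p = 0.000593), both with overlap. Fabp3, which carries fatty acids in the cytosol, and Acaa2, the thiolase, rose by 0.61 ± 0.14 and 0.6 ± 0.13 (adjusted p = 0.000793 and 0.000432).

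A pair of genes of this list was chosen after its values were seen. The 1 member that fell was Cpt1a, the liver-type gatekeeper of fatty acid entry into mitochondria, which differed by -0.65 ± 0.22 (adjusted p = 0.0262). That call was lost without probucol replicate 2 (-0.55, adjusted p = 0.0777), probucol replicate 3 (-0.54, adjusted p = 0.0868) or probucol replicate 4 (-0.60, adjusted p = 0.0534). Acadm, the medium-chain acyl-CoA dehydrogenase, rose by 0.7 ± 0.16 (adjusted p = 0.000835).

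The citrate cycle, which oxidises the acetyl-CoA from these pathways, had 18 of 24 members higher (17 without the 4 arrays, 11 in all 3 scalings) and none lower, with a median of 0.43. Fh1, fumarate hydratase, ran from 9.33 to 10.19 with a median of 9.71 in the chow hearts and from 10.22 to 10.54 with a median of 10.4 in the probucol hearts. Every probucol heart was above every chow heart, and Fh1 rose by 0.69 ± 0.12 (adjusted p = 4.96e-06). Idh3a, a subunit of isocitrate dehydrogenase, rose without overlap by 0.62 ± 0.11 (adjusted p = 8.79e-06). Suclg1 and Sdha, of succinyl-CoA ligase and succinate dehydrogenase, rose by 0.71 ± 0.14 and 0.65 ± 0.13 (adjusted p = 8.54e-05 and 0.000131).

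In the respiratory chain and ATP synthase 35 of 52 members rose (25 without the 4 arrays, 17 in all 3 scalings) and none fell, with a median of 0.46, and 19 rose with array brightness as a covariate. Uqcrc2, a core protein of complex III, ran from 10.41 to 11.29 with a median of 10.95 in the chow hearts and from 11.37 to 12.16 with a median of 11.75 in the probucol hearts. The groups were just apart, and Uqcrc2 rose by 0.81 ± 0.15 (adjusted p = 4.07e-05). The complex I subunits Ndufv1 and Ndufa9 rose without overlap by 0.67 ± 0.12 and 0.69 ± 0.14 (adjusted p = 1.69e-05 and 0.000111). Ndufs1, its largest subunit, rose by 0.77 ± 0.13 (adjusted p = 4.29e-06), and Atp5l, a membrane subunit of ATP synthase, by 0.66 ± 0.13 (adjusted p = 0.000124). In all 3 energy lists the differences of single genes were below 1, so less than 2-fold.

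Of 24 genes of glucose uptake and glycolysis 9 rose (7 without the 4 arrays, 3 in all 3 scalings) and 1 fell, with a median of 0.17. Pygm, the muscle glycogen phosphorylase, had a median of 9.52 and a lowest level of 9.22 in the chow hearts, and lowest, median and highest levels of 10.12, 10.43 and 10.57 in the probucol hearts. All chow hearts were below the lowest probucol heart, and Pygm rose by 0.88 ± 0.12 (adjusted p = 5.97e-08). Eno3, the muscle enolase, rose without overlap by 0.59 ± 0.12 (adjusted p = 0.000215), and Ldhb, the lactate dehydrogenase subunit of oxidative muscle, by 0.84 ± 0.19 (adjusted p = 0.000907). Pgam1, the mutase isoform of non-muscle tissue, was the member that fell (-0.74 ± 0.19 (adjusted p = 0.00277)), and it lost the call without the 4 arrays (adjusted p = 0.0533). Of 15 genes for creatine kinase, myoglobin and nucleotide carriers 5 rose (3 without the 4 arrays) and 1 fell; Ckmt2, the mitochondrial creatine kinase, rose without overlap by 0.61 ± 0.14 (adjusted p = 0.000536).

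Of 14 nuclear receptors and coactivators of metabolism 1 rose and 1 fell (1 and 0 without the 4 arrays). Ppara, the receptor that activates fatty acid oxidation genes, stood at 5.69, 5.84 and 6.27 on chow and 5.9, 6.48 and 6.92 on probucol. The ranges overlapped, and Ppara rose by 0.55 ± 0.14 (adjusted p = 0.0022), but not in the signals as deposited (0.31, adjusted p = 0.167). Its partner Rxrg differed by 0.83 ± 0.32 (adjusted p = 0.0555), short of the threshold, although it passed in 8 of the 35 alternatives tried.

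**Figure D4:**
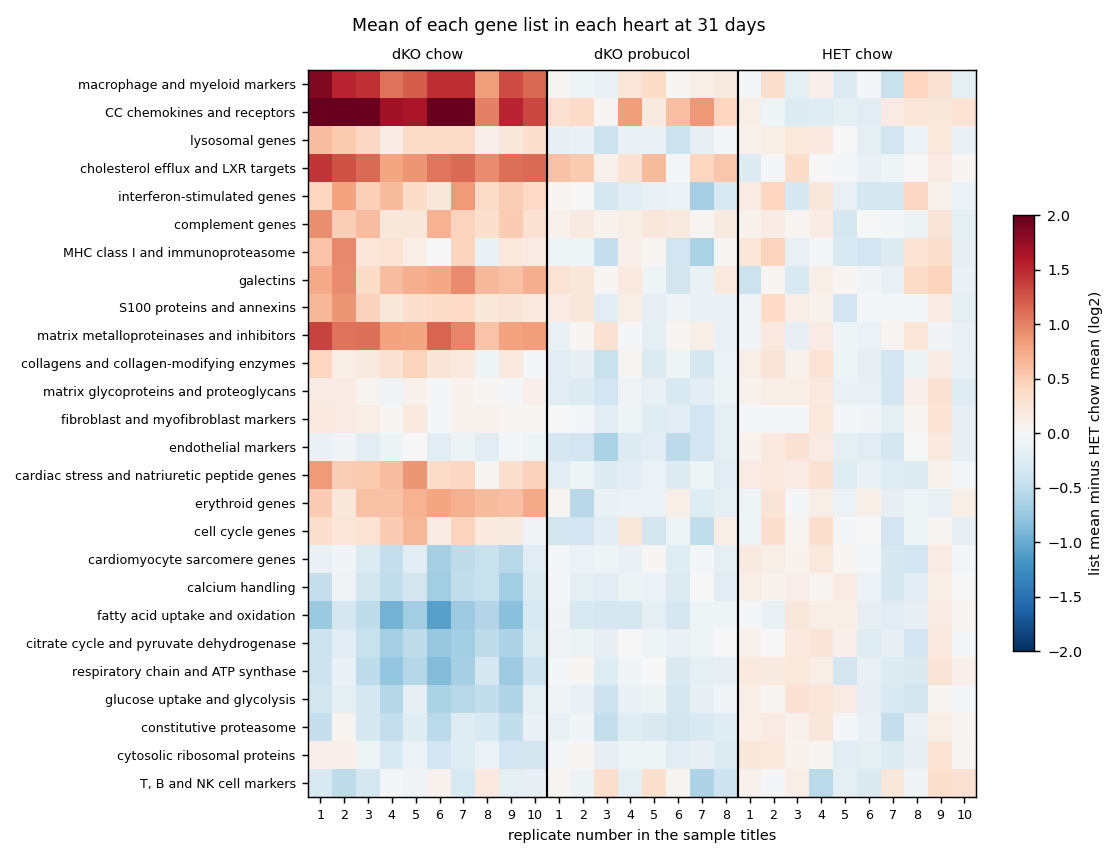
Mean log2 signal of each gene list on each of 28 arrays at 31 days (10 dKO chow, 8 dKO probucol, 10 HET chow), minus the mean of the HET chow arrays, as a colour scale, with lists in rows and arrays in columns. The dKO chow columns stand above HET chow for the macrophage, chemokine, LXR and erythroid lists and below it for the energy lists, and the probucol columns lie near 0 for most of these.

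The single genes that rose most were not members of the energy lists. Adam28, a metalloprotease of leukocytes and epithelia, ran from 3.18 to 4.69 with a median of 3.6 in the chow hearts and from 3.78 to 6.7 with a median of 6.0 in the probucol hearts. Of the 8 probucol hearts 7 were above every chow heart, and Adam28 rose by 2.01 ± 0.43 (adjusted p = 0.000258). Its chow mean of 3.72 lay within the levels of the markers left out as too dim, so the size and rank of the rise are uncertain. Adam28 stood at 6.22, 5.23 and 5.38 in the 3 HET probucol hearts, beside 3.59 to 5.32 in HET chow hearts. Immp1l, a subunit of the inner membrane peptidase of mitochondria, stood at 7.14, 7.78 and 8.35 on chow and 8.6, 8.86 and 9.23 on probucol. It rose without overlap by 1.15 ± 0.16 (adjusted p = 1.92e-08). Inmt, an indole methyltransferase, rose by 1.15 ± 0.27 (adjusted p = 0.000998) and Ces1d, a lipid hydrolase also placed among adipocyte genes, by 1.25 ± 0.39 (adjusted p = 0.0142), the latter not without the 4 arrays (adjusted p = 0.0511).

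Some of the large rises rest on probe sets of a less strict design. Of the 12 largest rises, 5 came from probe sets with the suffix _r_at, given by the manufacturer to sets chosen under relaxed rules, against 1 of the 12 largest falls (Mmp12) and 3.73% of all genes tested. These included Adam28, the chymotrypsin-like protease Ctrl (1.46 ± 0.37 (adjusted p = 0.00254)), the splicing factor Rbfox2 (1.41 ± 0.37 (adjusted p = 0.00358)) and Rpl32 (1.4 ± 0.39 (adjusted p = 0.00588)), the single one of 20 ribosomal protein genes to be called. The other probe set of Rbfox2, dim at 3.84 on chow and 3.83 on probucol, differed by -0.01. For the DNA ligase gene Lig1 (1.22 ± 0.32 (adjusted p = 0.00347)), the other probe set moved oppositely, and the mean of both gave -0.08 (adjusted p = 0.857). The chow means of Rpl32 (4.32), Lig1 (4.77) and Inmt (4.94) also lay within the levels of the markers left out as too dim. The sizes of their rises are therefore uncertain.

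Several lists had few calls or none, though not all lay below the shares over all genes of 11.4% lower and 7.93% higher. The falls among unfolded protein stress and adipocyte genes exceeded the former. The rises among hypoxia factors and skeletal muscle markers exceeded the latter. Of 28 subunits of the constitutive proteasome limma called 0 (1 rose without the 4 arrays), with 3 at an unadjusted p under 0.05 and a median of 0.03. Of 26 heat shock proteins and chaperonins 1 rose, with a median of 0.13, and that rise was kept neither in all 3 scalings nor without the 4 arrays. Hypoxia and angiogenic factors had 3 higher and 2 lower of 23 (3 and 1 without the 4 arrays), with a median of 0.00. In unfolded protein and amino acid stress, 5 of 24 fell and 1 rose, and 3 fell without probucol replicate 6 and 2 without the 4 arrays; Mthfd2, a mitochondrial folate enzyme, differed by -1.17 ± 0.3 (adjusted p = 0.00265) and lost the call without the 4 arrays (adjusted p = 0.0609). Of 15 adipocyte genes 3 fell and 1 rose (2 and 0 without the 4 arrays), of 13 imprinted growth genes 1 fell and 1 rose with or without the 4 arrays, and of 9 skeletal muscle markers 2 rose, 1 of them in all 3 scalings and 0 without the 4 arrays.

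The effect of probucol at 31 days was then compared with that at 21 days in the same genotype, by the interaction in the same fit. Of 5684 genes 146 (2.57%) had different effects, 74 (1.30%) lower and 72 (1.27%) higher at 31 days, while the median of all genes was 0.08; in all 3 scalings 72 were lower and 5 higher, and the numbers lower and higher were 583 and 8 in the signals as deposited and 145 and 98 after quantile normalization. Without the 4 arrays they were 37 and 45. With the array pattern as a block, used because it was present on 6 of the 10 chow and 1 of the 6 probucol hearts at 21 days, 69 genes were lower and 15 higher, 65 of these 84 shared with the main call. Ccl8 changed by -3.98 ± 0.36 against -0.38 ± 0.39, with a difference of -3.6 ± 0.53 (adjusted p = 9.38e-06). Ctss gave -1.89 ± 0.2 against -0.38 ± 0.22, with a difference of -1.51 ± 0.3 (adjusted p = 0.00231). Timp1 gave -2.25 ± 0.32 against -0.25 ± 0.35, with a difference of -2.0 ± 0.48 (adjusted p = 0.0162), and Mt2 gave -1.48 ± 0.22 against -0.06 ± 0.24, with a difference of -1.41 ± 0.32 (adjusted p = 0.0105). These falls were thus larger at the later age, and all 4 calls were kept with the block (adjusted p = 9.21e-05, 0.000887, 0.000664 and 0.00349).

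Some genes had already moved at 21 days. Cd68 gave -1.86 ± 0.16 against -0.86 ± 0.17, with a difference of -1.0 ± 0.24 (adjusted p = 0.0152), and its effect at 21 days had an adjusted p of 0.00358. Alas2 gave -2.4 ± 0.21 against -1.06 ± 0.23, with a difference of -1.34 ± 0.31 (adjusted p = 0.0148), with an adjusted p at 21 days of 0.00564. Lgals3 gave -3.48 ± 0.38 against -1.52 ± 0.42, with a difference of -1.96 ± 0.57 (adjusted p = 0.0444), a difference that did not pass with the block (adjusted p = 0.0888). For the muscle genes Myh6, Hrc, Echs1 and Uqcrc2 the effects at 21 days were -0.03, 0.13, -0.14 and -0.04, and the differences from 31 days of 0.73, 0.88, 1.12 and 0.85 passed the threshold (adjusted p = 0.0293, 0.0422, 0.0458 and 0.0265) but not with the block (adjusted p = 0.0694, 0.0977, 0.0959 and 0.0655).

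Between 31 and 43 days the effect differed for 370 genes (6.51%), 125 (2.20%) of them lower and 245 (4.31%) higher at 43 days, with a median of all genes of 0.07; in all 3 scalings 120 were lower and 166 higher, and in the signals as deposited 193 were lower and 185 higher. Without the 4 arrays 129 were lower and 193 higher. With the block 429 were called, 369 of them shared. Col3a1, which did not pass at 31 days, changed from -0.11 to -2.46 ± 0.16 at 43 days (difference -2.34 ± 0.23, adjusted p = 6.35e-13). Col5a2 went from -1.13 to -3.16 (difference -2.03 ± 0.26, adjusted p = 2.47e-08) and Postn from -1.28 to -2.96 (difference -1.68 ± 0.27, adjusted p = 1.66e-05).

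Of 20 genes of the cardiac stress and natriuretic peptide list 7 had a lower difference at 43 than at 31 days and none a higher one, and among 7 neutrophil and mast cell markers it was lower for 2. Sprr1a went from -1.42 to -3.89 (difference -2.47 ± 0.45, adjusted p = 0.000135). S100a9 had -1.02 at 31 and -3.63 ± 0.44 at 43 days (difference -2.61 ± 0.6, adjusted p = 0.00281). Nppa, near 0 at 31 days, differed by -0.72 ± 0.15 at 43 days (difference -0.67 ± 0.2, adjusted p = 0.0289). Of the genes of fatty acid oxidation, the citrate cycle and the respiratory chain, 18 of 30, 10 of 24 and 18 of 52 had a higher difference at 43 days and none a lower one. Ckm, the muscle creatine kinase, went from 0.53 to 1.84, Hrc from 1.01 to 2.15 and Acadm from 0.7 to 1.6 (adjusted p of the differences 7.26e-05, 0.00138 and 0.00868). Of 23 macrophage and myeloid markers the difference was lower at 43 days for 11 and higher for none, and the other 12 did not pass the threshold. Mpeg1 stood at -1.93 and -3.3 and Tyrobp at -1.62 and -2.89 (adjusted p of the differences 7.23e-05 and 0.000726).

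**Figure D5:**
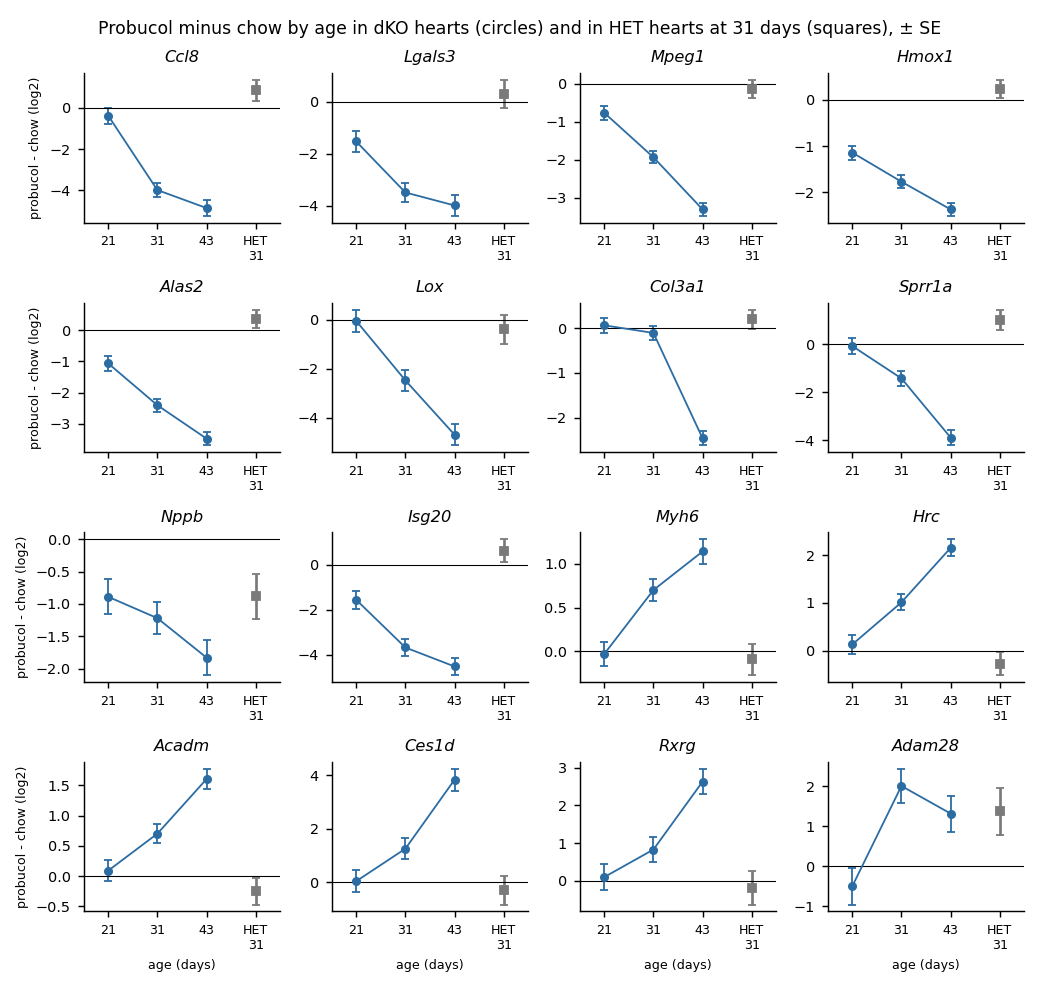
Log2 difference, probucol minus chow, with its standard error for 16 genes in dKO hearts at 21, 31 and 43 days and in HET hearts at 31 days. For Ccl8 the difference is -0.38 at 21 days, -3.98 at 31 days and -4.85 at 43 days in dKO hearts, and 0.84 in HET hearts.

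In HET hearts, which on chow had no detectable coronary disease per the design text, probucol was tested on 3 hearts. The effect at 31 days differed between dKO and HET hearts for 458 genes (8.06%), 114 (2.01%) lower and 344 (6.05%) higher in dKO, with a median of all genes of 0.15; in all 3 scalings 109 were lower and 39 higher. The split turned with the setting: the numbers lower and higher were 489 and 39 in the signals as deposited, 192 and 181 after quantile normalization, 146 and 64 with array brightness as a covariate, 97 and 111 with the block, and 78 and 245 without the 4 arrays. The count was 225, 252 and 197 without HET probucol replicates 1, 2 and 3, and 208 with the block, 183 of them shared, as 6 of the 10 HET chow hearts held the array pattern. For Hmox1, HET hearts averaged 7.8 ± 0.23 on chow and 8.04 ± 0.1 on probucol (SD, n = 10 and 3). The effects were -1.77 ± 0.14 against 0.24 ± 0.19, with a difference of -2.01 ± 0.23 (adjusted p = 7.68e-10). Cd68 gave -1.86 ± 0.16 against 0.15 ± 0.22, with a difference of -2.01 ± 0.27 (adjusted p = 1.06e-07), Alas2 gave -2.4 ± 0.21 against 0.36 ± 0.3, with a difference of -2.76 ± 0.36 (adjusted p = 4.14e-08), and Ccl8 gave -3.98 ± 0.36 against 0.84 ± 0.5, with a difference of -4.83 ± 0.62 (adjusted p = 1.79e-08). With the block these 4 differences remained past the threshold (adjusted p = 1.15e-09, 6.71e-11, 1.86e-08 and 1.66e-07).

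Genes with opposite effects in the genotypes included Apod and Cfp. Apod, at 3.62 ± 1.05 in HET chow hearts, rose in HET hearts to 6.58 ± 0.1 on probucol, by 2.97 ± 0.5 (adjusted p = 0.000106), while it fell in dKO hearts, and the difference was -5.0 ± 0.61 (adjusted p = 5.23e-09). Its HET chow level lay within those of the markers left out as too dim, so the sizes of that rise and difference are uncertain. Cfp rose in HET hearts by 1.04 ± 0.28 (adjusted p = 0.0169), and the difference was -2.31 ± 0.35 (adjusted p = 1.63e-06). Its HET chow hearts, at 4.23 to 6, mostly lay within those dim levels as well, so these sizes are also uncertain. For Myh6, Uqcrc2 and Fabp3 the HET effects were -0.09, -0.11 and -0.14, and the differences from dKO hearts (adjusted p = 0.021, 0.0198 and 0.0378) did not pass with the block (adjusted p = 0.0649, 0.0618 and 0.105).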

How the data were processed

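Total RNA of whole hearts was labelled with biotin and measured on Affymetrix arrays, 1 mouse per array, per the labels' protocols. The deposited values are linear signal intensities, for which the submitters' processing notes name MAS5 without a version; how the arrays were scaled is not stated in those notes or the labels. Of 12488 probe sets, 10855 had 1 gene symbol and 396 several, and 10839 were found among the genes of the GRCm38.p6 assembly. Signals below 4.22, the 10th percentile over all arrays, were set to it, and all were converted to log2 and centred on each array's median. The dimmest 40% of probe sets were dropped and the brightest remaining one was used for each gene, leaving 5684 genes, and differences near the floor are understated. In R 4.3.3, limma 3.58.1 estimated a mean for each of 12 groups from the 88 arrays together, with an intensity trend and Benjamini-Hochberg adjustment at 0.05; the data.table package (1.17.8), Python 3.11.15, pandas 2.3.3, numpy 2.4.6 and matplotlib 3.10.9 were also used. On simulated data the fit recovered 72 of 100 genes changed by 1 on the log2 scale and 32 of 100 changed by 0.5, with 5 false among 109 calls. The simulated noise was independent between genes and arrays and held neither the brightness difference nor the array pattern of the real data. That number of false calls therefore does not carry over to the real arrays. The number of arrays limits the precision.

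Named genes were Scarb1 and Apoe, the 12 largest rises and falls, and up to 5 called members of each of 48 lists by smallest p (or 2 where fewer passed), from which some are shown; for age and genotype, the 5 largest differences each way and genes already named. Nppa, Acadm and Cpt1a were chosen after their values were seen. The members and lists were chosen with earlier results of these data known. Replicate numbers did not pair arrays: the correlation of deviations of the 8 same-numbered pairs was -0.16 to 0.19. The array pattern was the mean of 40 genes from one end minus that of 40 from the other end of the second residual component (6.69% of the variance), which left a gap of 0.586 between 68 and 20 arrays; some group difference can enter it. Of the 139 genes shown, 31 had 41 other probe sets, 10 of which differed in sign from the one used.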

Additional observations from a re-analysis of the deposited data

Results flagged for a closer look

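In 286 groups of single-gene values from the 18 arrays, 23 held an array set apart from its group by the Dixon criterion, which chance gives in about 1 of 20 groups. Chow replicate 1 was highest for C1qa (10.84, next 10.18), C1qb (10.51, next 9.79), C1qc (11.82, next 10.70) and Col3a1 (10.83, next 10.01), and lowest for Bpgm (8.13, next 8.86), Tent5c (6.79, next 7.49) and Mthfd2 (5.50, next 6.41). Among other chow hearts the lowest values were those of replicate 6 for Lgals9 (7.34, next 8.00) and Ckm (7.41, next 8.21), of replicate 8 for Il4ra (5.38, next 6.52) and Pgam1 (6.81, next 7.59), and of replicate 4 for Gsta4 (3.86, next 5.06). Probucol replicate 3 was lowest for Ifi27 (5.34, next 7.06), Cdh5 (7.38, next 8.30), Uck2 (5.68, next 6.49) and Pgam1 (5.97, next 6.84). Probucol replicate 4 was highest for Ccl7 (6.26, next 5.15) and lowest for Acaa2 (12.26, next 12.50) and Ces1d (6.17, next 6.93). Probucol replicate 7 was highest for Myh6 (12.98, next 12.81) and Cacna1c (8.45, next 8.19). Probucol replicate 2 was lowest for Sprr1a (4.37, next 5.81) and probucol replicate 5 for Ndufs1 (10.47, next 10.75).

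Effects of probucol that differed between ages or genotypes by the test of the difference itself are given as log2 differences, with those that did not pass with the array pattern as a block named. At 31 minus 21 days in dKO hearts, the negative differences were -3.6 for Ccl8, -3.24 for Apod, -2.43 for Lox, -2.38 for the elastase gene Cela1, -2.35 for Fcgr2b, -2.0 for Timp1, -1.96 for Lgals3, -1.62 for Bpgm, -1.51 for Ctss, -1.41 for Mt2, -1.34 for Alas2 and -1.0 for Cd68. The positive differences were 2.51 for Adam28, 2.26 for Rgs6, 1.98 for Rbfox2, 1.7 for Ifitm10, 1.7 for Ly6g6c, 1.12 for Echs1, 0.88 for Hrc, 0.85 for Uqcrc2 and 0.73 for Myh6. With the block Fcgr2b, Lgals3, Rbfox2, Ifitm10, Ly6g6c, Echs1, Hrc, Uqcrc2 and Myh6 did not pass (adjusted p = 0.054, 0.0888, 0.136, 0.173, 0.11, 0.0959, 0.0977, 0.0655 and 0.0694).

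At 43 minus 31 days all of the differences given here passed with the block. The negative ones were -2.61 for S100a9, -2.55 for Mmp3, -2.47 for Sprr1a, -2.34 for Col3a1, -2.22 for Lox, -2.03 for Col5a2, -1.91 for Serpina3n, -1.68 for Postn, -1.37 for Mpeg1, -1.29 for Ccn2, -1.27 for Tyrobp, -0.76 for Hba-a1 and -0.67 for Nppa. The positive ones were 2.58 for Ces1d, 2.47 for the muscle fructose bisphosphatase Fbp2, 1.9 for Gsta4, 1.8 for Rxrg, 1.31 for Ckm, 1.14 for Hrc, 0.9 for Acadm and 0.67 for Atp2a2.

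Between dKO and HET hearts at 31 days the negative differences were -5.0 for Apod, -4.83 for Ccl8, -4.57 for Mmp12, -4.3 for Isg20, -3.79 for Lgals3, -2.76 for Alas2, -2.74 for Ccl2, -2.61 for Serpina3n, -2.31 for Cfp, -2.18 for Ctss, -2.01 for Hmox1 and -2.01 for Cd68. The positive differences were 2.46 for Sprr2d, 2.37 for Ptprv, 2.23 for Clip3, 2.22 for Prpf31, 2.21 for Ctrl, 0.92 for Uqcrc2, 0.79 for Myh6 and 0.74 for Fabp3. With the block Ptprv, Myh6, Uqcrc2 and Fabp3 did not pass (adjusted p = 0.129, 0.0649, 0.0618 and 0.105).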

How the results depend on the processing

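The count for probucol against chow in dKO hearts at 31 days stayed within 1.5 times 1101 except for 570 with a minimum of 1.5-fold (150 higher, 420 lower) and 731 without the 4 arrays farthest out (410 lower). The split moved with the scaling, to 122 higher and 1519 lower in the signals as deposited and 711 higher after quantile normalization, and to 997 lower with array brightness as a covariate. Leaving out single arrays gave 918 to 1125 genes, 385 to 487 higher and 513 to 664 lower. For the difference between 31 and 21 days, 146 became 591 as deposited, 243 after quantile normalization, 531 with array weights, 71 with the actin ratio as a covariate, 82 without the 4 arrays and 84 with the array pattern as a block. For 43 against 31 days, 370 became 593 after quantile normalization and 788 with array weights. For dKO against HET, 458 became 903 with array weights, 210 with array brightness, 208 with the array pattern as a block and 197 to 252 without single HET probucol hearts. The causes were not tested. With the replicate number as a block the counts were 1089, 164, 306 and 510; the numbers did not pair the arrays, since 1 of 8 pairs correlated over 0.1 and 1 of 8 probucol arrays correlated best with its own number. Of the 139 genes shown, 13 lost the call without the 4 arrays. Lig1 was the 1 called gene whose difference turned sign, at -0.08 with the mean of its probe sets, where it was no longer called (adjusted p = 0.857).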
